A study of Homo sapiens with 24 samples.

Results

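The genes described here are the enzymes that form and rearrange disulfide bonds in the secretory pathway, namely the ER oxidoreductins ERO1L and ERO1LB (ERO1A and ERO1B in current nomenclature), the quiescin sulfhydryl oxidases QSOX1 and QSOX2, and the protein disulfide isomerases P4HB, PDIA3, PDIA4, PDIA5 and PDIA6. They were chosen by symbol, as the rows of the count files that carry these names, and all 9 were found among the 23106 gene symbols. Expression was measured by RNA-seq of polyadenylated RNA in 4 established cancer cell lines, namely the breast line T47D, the prostate line PC3, the colorectal line HCT116 and the lung line A549. Cells were kept in 21% oxygen (normoxia) or in 0.5% oxygen for 16 h (hypoxia), with 3 replicate libraries in each of the 8 groups, no genetic change being named for any group. A549 and PC3 cells were grown in F12K medium, HCT116 cells in McCoy's medium and T47D cells in DMEM. Line and medium therefore cannot be told apart except between A549 and PC3 cells. The study's methods also name alternative kits for RNA and for libraries and several sequencers, without assigning them to lines. Whether the lines differed in these is not stated. The sources used here do not say whether replicates came from separate cultures, and the p values then measure only the spread between these libraries.

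Proteins that enter the endoplasmic reticulum (ER) acquire disulfide bonds by passing electrons from their cysteines to a protein disulfide isomerase (PDI), which in turn is reoxidized by an ERO1 enzyme that uses molecular oxygen and releases hydrogen peroxide. QSOX enzymes hold a PDI-like and an oxidase domain in a single chain and act mainly later in the secretory pathway and outside the cell. P4HB, the archetypal PDI, is also the beta subunit of the collagen prolyl 4-hydroxylases and of the microsomal triglyceride transfer protein. ERO1L is an established hypoxia-inducible gene, while several PDI genes are targets of the unfolded protein response, the programme that follows the accumulation of misfolded protein in the ER.

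Libraries held 22698584 to 62850747 gene counts (median 56109796), with no pair of libraries identical and correlations of log2 levels between replicates of 0.968 to 0.994 across genes. Of the lineage markers, ESR1, PGR and GATA3 were at 166 to 708 CPM (counts scaled to library size) on average in normoxic T47D cells, HOXB13 was at 75.1 CPM in PC3 cells and CDX2 at 11.8 CPM in HCT116 cells. The data did not bear out every label, since NKX2-1 was at 0 and SFTPB, SFTPC and NAPSA were under 1 CPM in normoxic A549 cells, CDX1 and VIL1 were at 0 in normoxic HCT116 cells, and KLK3 was at 0 in PC3 cells. Markers of blood, stromal and endothelial cells were below 1 CPM on average in normoxia in every line. The hypoxia reference gene PGK1, a glycolytic enzyme, was upregulated in hypoxia in all 4 lines, least in PC3 cells (log2 fold change 0.56 ± 0.12 SE, edgeR adjusted p = 0.00794), and most in T47D cells (2.56 ± 0.30, edgeR adjusted p = 0.000240). CA9, a carbonic anhydrase, averaged 0.34 CPM in normoxic and 114 CPM in hypoxic A549 cells, against 1.21 and 4.36 CPM in PC3 cells. It was at 0 counts in all normoxic T47D libraries, against 29.8 to 42.1 CPM in hypoxia.

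Of the 9 enzymes, 4 changed in the same direction in every line in hypoxia. ERO1L, QSOX1 and P4HB were upregulated and ERO1LB was downregulated, where a call requires an adjusted p under 0.05 (edgeR quasi-likelihood test, Benjamini-Hochberg over all genes tested in the line) and a fold change over 1.2. Among all genes tested in the 4 lines, 2.58% were called up in each of them and 3.36% were called down. Of these 4 enzymes, only QSOX1 kept its call in every line under all 13 alternative analyses. The calls of ERO1L, P4HB and ERO1LB were each lost in PC3 cells under some of them, and other lost calls are given below. PDIA3 and PDIA5 were called up in A549 and HCT116 cells and PDIA4 in HCT116 cells, while QSOX2 and PDIA6 were not called in any line. In A549 cells 5 of the 9 enzymes were called up and 1 down, against 17.6% and 17.8% of all genes tested. In HCT116 cells 6 were called up and 1 down, against 23.3% and 27.0%. In PC3 cells 3 were called up and 1 down, against 16.6% and 15.7%, and in T47D cells 3 and 1, against 6.55% and 6.69%. These fits did not pair libraries by replicate number. For T47D cells, a fit with that number as a block also called PDIA3 up (edgeR adjusted p = 0.0157). The median log2 fold change of the 9 enzymes was 0.31 in A549, 0.75 in HCT116, 0.17 in PC3 and 0.53 in T47D cells, whereas that of all genes tested lay between -0.03 and -0.01. Libraries of the 2 states did not overlap, with hypoxia the higher state, for 5 enzymes in A549, 6 in HCT116, 5 in PC3 and 6 in T47D cells, as for 23.6%, 32.8%, 28.4% and 19.0% of all genes tested. With hypoxia the lower state this held for 1 enzyme in each line, ERO1LB, and for 24.3%, 27.6%, 22.2% and 13.3% of all genes. In bulk libraries, fewer cells with a transcript and less of it per cell cannot be told apart.

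**Figure D1:**
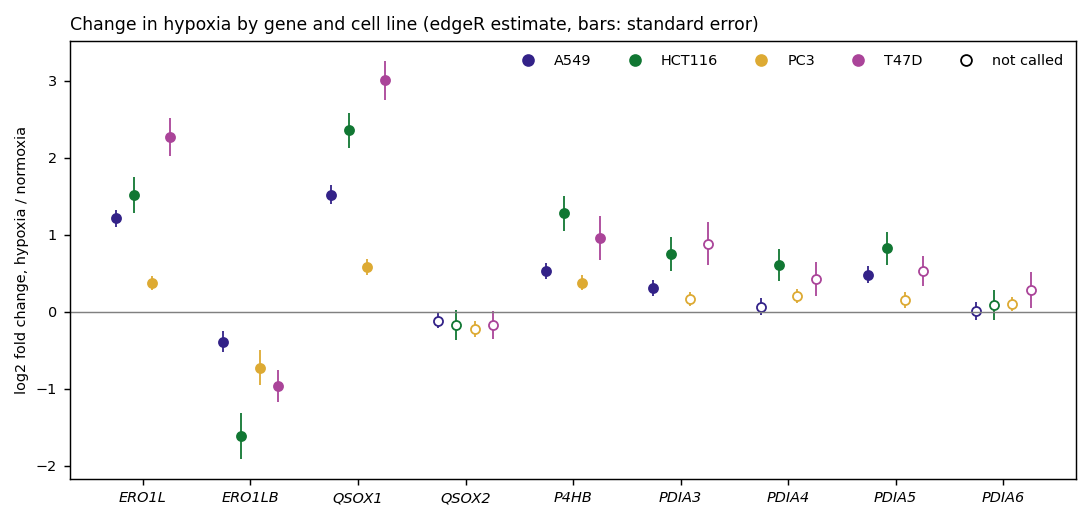
Log2 fold change in hypoxia (vertical axis, edgeR estimate, bars are standard errors) of the 9 enzymes (horizontal axis) in each cell line (colour), with filled points for calls and open points for genes not called. QSOX1 spans 0.58 in PC3 to 3.01 in T47D cells, ERO1LB lies below 0 in every line, and QSOX2 and PDIA6 have open points only.

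ERO1L (chr14:53106633-53162618, minus strand, GRCh37, 16 exons in the canonical transcript) reoxidizes P4HB. In A549 cells its level was 82.3, 82.3 and 95.5 CPM in the normoxic libraries and 216, 193 and 195 CPM in the hypoxic ones. HCT116 cells had 71.6, 66.5 and 84.8 CPM in normoxia and 167, 305 and 220.4 CPM in hypoxia. Every hypoxic library of these lines lay above every normoxic one. T47D cells had 65.3, 50.9 and 74.4 CPM in normoxia and 375, 364 and 234 CPM in hypoxia. In PC3 cells the values were 384, 424 and 348 CPM in normoxia and 504, 508 and 543 CPM in hypoxia, again without overlap between the oxygen states. Of the 3 normoxic PC3 libraries, 2 exceeded the highest hypoxic library of the other lines, at 375 CPM.

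The log2 fold change of ERO1L was 2.27 ± 0.25 (SE) in T47D cells (edgeR adjusted p = 0.000123), 1.52 ± 0.23 in HCT116 cells (edgeR adjusted p = 0.000233), 1.21 ± 0.11 in A549 cells (edgeR adjusted p = 1.67e-05) and 0.38 ± 0.093 in PC3 cells (edgeR adjusted p = 0.0145). In fold terms the rise was 4.83, 2.86, 2.32 and 1.30. Expressed as a difference of levels, the gain was 133 ± 25.4 CPM (SE) in PC3 cells, between 115 ± 8.51 CPM in A549 and 157 ± 40.4 CPM in HCT116 cells, with 261 ± 45.8 CPM in T47D cells. The fold change estimated for PC3 cells was thus the lowest of the 4 lines, but their estimated gain in CPM was not. The gains were not tested against each other, and that of PC3 cells was close to that of A549 cells. The PC3 call was lost without hypoxia replicate 2, hypoxia replicate 3 or normoxia replicate 1 (edgeR adjusted p = 0.0545, 0.0622 and 0.0605), and in a single fit of all 24 libraries (0.170).

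ERO1LB (chr1:236377981-236445319, minus strand, GRCh37, 16 exons), the paralog known for its expression in secretory tissues such as pancreatic islets, moved in the opposite direction. In HCT116 cells it was at 13.1, 27.8 and 16.9 CPM in normoxia and at 5.28, 8.85 and 6.48 CPM in hypoxia. T47D cells had 24.02, 23.6 and 17.7 CPM in normoxia and 10.9, 12.95 and 11.7 CPM in hypoxia. Hypoxic libraries were below all normoxic ones in both lines. In A549 cells the values were 16.3, 16.2 and 13.2 CPM in normoxia against 11.99, 10.5 and 12.6 CPM in hypoxia, and the closest libraries differed by little. PC3 cells held only 2.32, 2.78 and 3.34 CPM in normoxia and 1.83, 1.67 and 1.83 CPM in hypoxia, from 56 to 151 counts a library. The states did not overlap in either line.

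ERO1LB was downregulated in HCT116 cells with a log2 fold change of -1.61 ± 0.29 (SE, edgeR adjusted p = 0.000719), the only line in which every alternative analysis kept the call. The log2 fold change was -0.96 ± 0.21 in T47D cells (edgeR adjusted p = 0.0132), -0.72 ± 0.22 in PC3 cells (edgeR adjusted p = 0.0335) and -0.39 ± 0.14 in A549 cells (edgeR adjusted p = 0.0463). The A549 call was lost under 8 of 13 alternatives, among them without hypoxia replicate 1 or 2 or normoxia replicate 1 or 2 (edgeR adjusted p = 0.0817, 0.204, 0.148 and 0.154). In PC3 cells it was lost without any of the hypoxic libraries or normoxia replicate 3 (edgeR adjusted p = 0.0722, 0.114, 0.0774 and 0.0971) and in a single fit of all 24 libraries (0.0965), and in T47D cells without hypoxia replicate 1 or normoxia replicate 1 or 2 (0.0553, 0.110 and 0.0740). GPR137B, which lies on the opposite strand and spans 2 exons of ERO1LB, was upregulated in A549 (log2 fold change 0.90) and HCT116 cells (0.64) and had 0.10 in PC3 and 0.29 in T47D cells, without a call. The strand setting used for counting is not given in the sources used here, so that reads of this pair cannot be told apart where they overlap.

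The promoters of the 4 enzymes called in every line are shown because ERO1L, QSOX1 and P4HB moved together and ERO1LB against them. Each is 300 bases of RefSeq sequence (GRCh38.p14), from 250 bases before to 50 bases after the annotated start, read 5′ to 3′ on the strand of the gene. Capitals mark ACGTG or GCGTG, the core of the element bound by hypoxia-inducible factors, on either strand, so that a match on the other strand reads CACGT or CACGC. ERO1L lies at chr14:52695509-52695808, ERO1LB at chr1:236281909-236282208, QSOX1 at chr1:180154619-180154918 and P4HB at chr17:81860486-81860785.
ERO1L: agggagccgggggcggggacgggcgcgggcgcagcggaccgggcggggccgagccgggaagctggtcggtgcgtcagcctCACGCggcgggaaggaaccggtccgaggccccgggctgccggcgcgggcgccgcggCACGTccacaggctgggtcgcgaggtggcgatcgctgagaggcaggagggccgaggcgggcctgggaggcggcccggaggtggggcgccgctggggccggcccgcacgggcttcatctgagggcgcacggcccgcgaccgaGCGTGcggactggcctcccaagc
ERO1LB: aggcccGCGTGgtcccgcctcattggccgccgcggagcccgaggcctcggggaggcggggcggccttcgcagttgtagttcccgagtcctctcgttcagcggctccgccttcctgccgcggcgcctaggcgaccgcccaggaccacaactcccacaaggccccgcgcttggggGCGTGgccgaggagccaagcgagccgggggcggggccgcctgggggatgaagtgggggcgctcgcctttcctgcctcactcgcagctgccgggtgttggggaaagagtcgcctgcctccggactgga
QSOX1: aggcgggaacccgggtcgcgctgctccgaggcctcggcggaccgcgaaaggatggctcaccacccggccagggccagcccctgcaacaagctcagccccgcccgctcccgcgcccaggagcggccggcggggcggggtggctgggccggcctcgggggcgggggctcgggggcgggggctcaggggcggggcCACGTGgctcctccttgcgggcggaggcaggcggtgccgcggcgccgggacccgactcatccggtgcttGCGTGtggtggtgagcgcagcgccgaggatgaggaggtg
P4HB: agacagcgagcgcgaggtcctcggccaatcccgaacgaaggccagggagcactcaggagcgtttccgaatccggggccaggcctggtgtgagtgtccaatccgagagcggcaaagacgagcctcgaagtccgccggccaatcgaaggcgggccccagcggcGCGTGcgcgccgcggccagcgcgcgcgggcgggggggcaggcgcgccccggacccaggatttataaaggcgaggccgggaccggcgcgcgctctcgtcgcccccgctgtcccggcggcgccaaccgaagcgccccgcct

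Counted on both strands, the ERO1L promoter held 3 matches, whose first bases lie at positions -170, -114 and 28 from the start. The QSOX1 promoter held 3, of which a pair forms the palindrome CACGTG from position -58 and the other begins at position 12. ERO1LB held 2 matches, at positions -244 and -77, and P4HB held 1, at position -89. Of all 35116 promoters of the table, 48.4% held at least 1 match, 23.1% at least 2 and 10.1% at least 3, so a match alone does not set these genes apart. Among the isomerases, PDIA5, whose promoter held 4 matches (4.40% of all promoters have at least 4), was called in A549 and HCT116 cells. PDIA6, which was not called in any line, had 3 matches in one annotated promoter and 1 in the other, and PDIA4 had 1 and 0. The ER stress response element, CCAAT and CCACG spaced by 9 bases, was found on the minus strand of the ERO1LB promoter from position -243, overlapping the GCGTG match there, and in one of the PDIA6 promoters from position -86. It was present in 27 of all promoters (0.0769%), and both genes that held it were not called up in any line. The element TGACGTGG, which 0.729% of all promoters hold, was in none of the promoters reported here. QSOX2 was not in the table, and no promoter or match is reported here for PDIA3 either.

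QSOX1 (chr1:180124004-180173165, plus strand, GRCh37, 12 exons), a secreted and Golgi oxidase that acts on extracellular matrix proteins, had the largest rise of the 9 enzymes by log2 fold change in every line. T47D cells had 41.3, 32.5 and 46.98 CPM in normoxia and 406, 374 and 245 CPM in hypoxia. HCT116 cells had 47.5, 40.1 and 53.3 CPM in normoxia and 203, 332 and 248 CPM in hypoxia. The lowest hypoxic library stood far above the highest normoxic one in both of these lines. A549 cells went from 86.0, 101 and 115 CPM to 268, 299 and 301 CPM. PC3 cells went from 303, 338 and 258 CPM to 463, 474 and 452 CPM, and no library of either line crossed into the other state.

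These values corresponded to log2 fold changes of 3.01 ± 0.25 (SE) in T47D cells (edgeR adjusted p = 1.63e-05), 2.35 ± 0.22 in HCT116 cells (edgeR adjusted p = 2.95e-05), 1.52 ± 0.12 in A549 cells (edgeR adjusted p = 7.30e-06) and 0.58 ± 0.10 in PC3 cells (edgeR adjusted p = 0.00426), or 8.03-, 5.11-, 2.86- and 1.49-fold. Ranked by log2 fold change, 0.504% of all genes tested stood above QSOX1 in T47D cells, 0.668% in HCT116, 1.87% in A549 and 10.3% in PC3 cells. The gain in level was 302 ± 49.3 CPM (SE) in T47D, 214 ± 38.0 CPM in HCT116, 189 ± 13.4 CPM in A549 and 163 ± 24.2 CPM in PC3 cells. The call was kept under all 13 alternatives in each line.

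QSOX2 (chr9:139098179-139137658, minus strand, GRCh37, 12 exons), the paralog of QSOX1, was not called in any line by edgeR or DESeq2, and the count of lines with an unadjusted p under 0.05 was also 0. Its log2 fold change was -0.12 ± 0.10 (SE) in A549, -0.17 ± 0.19 in HCT116, -0.22 ± 0.10 in PC3 and -0.18 ± 0.18 in T47D cells, with edgeR adjusted p values of 0.398, 0.486, 0.131 and 0.545. In A549 cells the libraries held 83.4, 81.3 and 83.4 CPM in normoxia and 73.0, 82.1 and 74.7 CPM in hypoxia, and the states overlapped there as in the other lines. Without normoxia replicate 3 of PC3 cells the difference there passed the threshold (log2 fold change -0.28, edgeR adjusted p = 0.0443), and without normoxia replicate 1 of HCT116 cells its sign turned (0.0392).

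**Figure D2:**
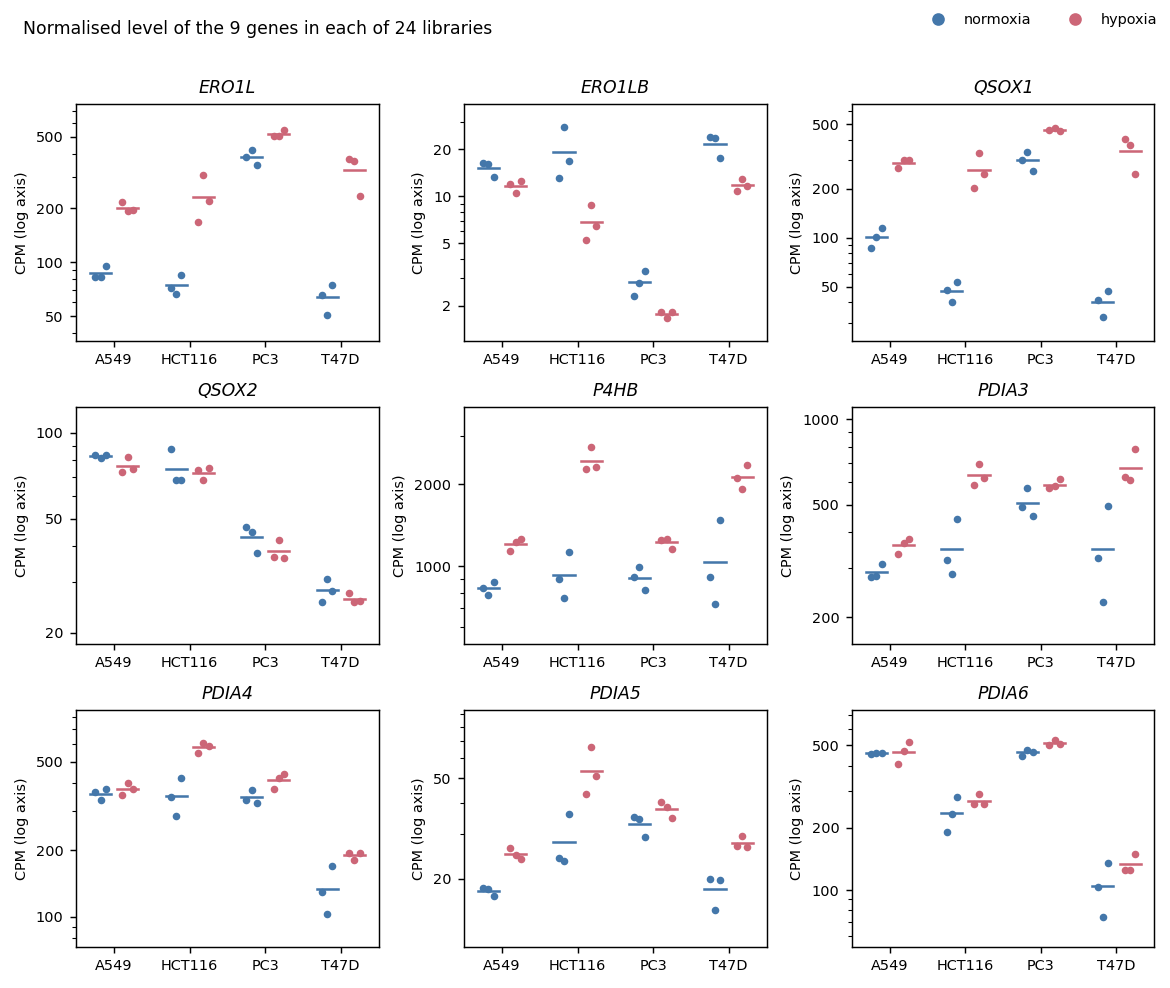
Normalised level (vertical axes, CPM on a log axis, a separate range for each gene) of the 9 enzymes in each of the 24 libraries, by cell line (horizontal axis) and oxygen state (colour), with bars for the mean of 3 libraries. ERO1L and QSOX1 start highest in PC3 cells, at 385 and 299.6 CPM on average, while P4HB starts at 833 to 1040.2 CPM in every line.

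P4HB (chr17:79801035-79818732, minus strand, GRCh37, 11 exons), the most abundant of these transcripts per kilobase of the canonical transcript, was upregulated in every line. HCT116 cells had 894, 767 and 1128 CPM in normoxia and 2271, 2735 and 2316 CPM in hypoxia. T47D cells had 913, 727 and 1480.2 CPM in normoxia and 2112, 1911 and 2349 CPM in hypoxia. Both lines were without overlap, although normoxia replicate 3 of T47D cells stood well above the other two normoxic libraries. A549 cells had 835, 784 and 879 CPM in normoxia and 1138, 1222 and 1256 CPM in hypoxia. PC3 cells had 916, 994 and 816 CPM in normoxia and 1252, 1254 and 1161 CPM in hypoxia, and these states did not overlap either.

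The log2 fold change of P4HB was 1.28 ± 0.23 (SE) in HCT116 (edgeR adjusted p = 0.000617), 0.96 ± 0.29 in T47D (edgeR adjusted p = 0.0428), 0.53 ± 0.10 in A549 (edgeR adjusted p = 0.00269) and 0.38 ± 0.094 in PC3 cells (edgeR adjusted p = 0.0150). The highest estimate for P4HB was that of HCT116 cells and those for QSOX1 and ERO1L were those of T47D cells, although no difference between this pair of lines passed the threshold. The T47D call was lost without hypoxia replicate 1 or 2 or normoxia replicate 1 or 2 (edgeR adjusted p = 0.109, 0.0635, 0.223 and 0.149), and the PC3 call without hypoxia replicate 1 or 2 or normoxia replicate 1 (0.0591, 0.0727 and 0.0594). A single fit of all 24 libraries lost the call in A549 (edgeR adjusted p = 0.0670) and PC3 cells (0.182).

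PDIA3 (chr15:44038592-44065477, plus strand, GRCh37, 13 exons), also called ERp57, works with calnexin and calreticulin on glycoproteins. In HCT116 cells it was at 318, 284 and 444 CPM in normoxia and at 585, 695 and 623 CPM in hypoxia (log2 fold change 0.75 ± 0.22, edgeR adjusted p = 0.0109). In A549 cells the levels were 279, 280.1 and 308 CPM against 334, 367 and 379 CPM (0.31 ± 0.10, edgeR adjusted p = 0.0360). Neither line had overlapping states, but the A549 call was lost without hypoxia replicate 2 or 3 or normoxia replicate 1 or 2 (edgeR adjusted p = 0.127, 0.0705, 0.143 and 0.119), with library totals (0.118) and in a single fit of all 24 libraries (0.308). In T47D cells the values were 325, 226 and 494 CPM in normoxia and 625, 612 and 788 CPM in hypoxia, with a larger log2 difference, 0.89 ± 0.28, that did not pass the threshold (edgeR adjusted p = 0.0530). Same-numbered T47D libraries deviated together. In the paired fit, in which each number forms a block, the difference was 0.94 and passed (edgeR adjusted p = 0.0157), as it did with DESeq2 (adjusted p = 0.0108) and without normoxia replicate 3 (1.19, edgeR adjusted p = 0.0147). It passed under 6 of 13 alternatives in all, the single fit of all libraries included (edgeR adjusted p = 0.00180). PC3 cells showed 0.17 ± 0.097 (edgeR adjusted p = 0.207), with overlapping states.

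The count of PDIA3 is uncertain for sequence it shares with other loci. Its pseudogene PDIA3P, to which 684 to 2438 counts a library were assigned against 11869 to 43073 for PDIA3, had log2 fold changes of 0.38 in A549, 0.71 in HCT116, 0.09 in PC3 and 0.69 in T47D cells, close to those of PDIA3 itself. ELL3, which overlaps the end of PDIA3 on the opposite strand, was downregulated in HCT116 (-1.78) and T47D cells (-1.26). It held at most 74.3 CPM on average, and its part in the PDIA3 values was not tested.

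PDIA5 (chr3:122785872-122944074, plus strand, GRCh37, 17 exons), a low-abundance isomerase implicated in activation of the stress sensor ATF6, was called up in A549 and HCT116 cells. A549 cells had 18.4, 18.3 and 17.2 CPM in normoxia and 26.5, 24.9 and 24.1 CPM in hypoxia (log2 fold change 0.48 ± 0.11, edgeR adjusted p = 0.00593). HCT116 cells had 24.3, 23.5 and 36.2 CPM in normoxia and 43.4, 66.5 and 51.2 CPM in hypoxia (0.82 ± 0.21, edgeR adjusted p = 0.00631). Neither line overlapped between states, and both calls were kept under all 13 alternatives. In T47D cells the states also did not overlap, at 19.9, 15.1 and 19.8 CPM against 27.1, 29.6 and 26.8 CPM, but the difference of 0.53 ± 0.19 did not pass (edgeR adjusted p = 0.0846) except in the single fit of all 24 libraries (0.61, edgeR adjusted p = 0.0113). PC3 cells had 0.15 ± 0.10 (edgeR adjusted p = 0.277).

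PDIA4 (chr7:148700154-148725754, minus strand, GRCh37, 10 exons), or ERp72, is a lumenal isomerase and textbook target of the unfolded protein response. Fitted line by line, it was called up in HCT116 cells, from 348, 286 and 423 CPM to 548.6, 610.5 and 589 CPM (log2 fold change 0.61 ± 0.21, edgeR adjusted p = 0.0251), and the call was lost without hypoxia replicate 2 or 3 (edgeR adjusted p = 0.0754 and 0.0864). The other log2 differences were 0.07 ± 0.11 in A549, 0.21 ± 0.095 in PC3 and 0.43 ± 0.22 in T47D cells, with edgeR adjusted p values of 0.651, 0.118 and 0.201, and the single fit of all 24 libraries called the T47D difference (0.50, edgeR adjusted p = 0.0266). PC3 and T47D cells nevertheless had no overlap between states, which 28.4% and 19.0% of all genes tested also showed with hypoxia the higher state. Scaling to library totals turned the sign in A549 cells (-0.0484).

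PDIA6 (chr2:10923517-10978103, minus strand, GRCh37, 13 exons), which attenuates the stress sensors PERK and IRE1, was not called in any line by edgeR or DESeq2, and had an unadjusted p under 0.05 in 0 lines. In A549 cells it was at 453, 459.7 and 462 CPM in normoxia and at 406, 468 and 519 CPM in hypoxia, so that the hypoxic libraries lay on both sides of the normoxic ones. The log2 fold change was 0.01 ± 0.11 (SE) in A549, 0.09 ± 0.20 in HCT116, 0.10 ± 0.086 in PC3 and 0.28 ± 0.23 in T47D cells, with edgeR adjusted p values of 0.942, 0.734, 0.388 and 0.421. The A549 value turned to -0.11 with library totals and to -0.0642 without hypoxia replicate 3. ATP6V1C2, on the opposite strand over 2 exons of PDIA6, was at 3.23 CPM or less on average.

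In normoxia, the libraries of T47D cells differed among themselves in the same way for most of these enzymes. Replicate 2 was the lowest and replicate 3 the highest for ERO1L, QSOX1, P4HB, PDIA3, PDIA4 and PDIA6, with P4HB at 727 against 1480.2 CPM, PDIA3 at 226 against 494 CPM and PDIA6 at 74.4 against 134 CPM. In hypoxia, replicate 3 of T47D cells was the highest for P4HB, PDIA3 and PDIA6 but the lowest for ERO1L and QSOX1, at 234 and 245 CPM. These 2 libraries of replicate 3 held 57359955 and 57553160 counts, near the median of the series, and normoxic replicate 2 held 56500593.

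Levels of different genes were compared per kilobase of the canonical transcript. The ratio of ERO1L to ERO1LB was 2.94 ± 1.03 (SD, n = 3) in normoxic T47D cells and 26.8 ± 7.06 in hypoxic ones. For HCT116 cells these ratios were 4.17 ± 1.62 and 32.4 ± 1.43, for A549 cells 5.62 ± 1.21 and 16.8 ± 1.56, and for PC3 cells 137 ± 31.6 and 284 ± 14.5. No library of the other lines, in either state, reached the lowest normoxic PC3 library, at 101. For QSOX1 and QSOX2 the order of these levels per kilobase turned. QSOX2 was the higher of the pair in every normoxic library of A549, HCT116 and T47D cells, with QSOX1 to QSOX2 ratios of 0.263 to 0.817, and QSOX1 was the higher in every hypoxic library, with 1.33 to 7.19. In PC3 cells QSOX1 was already the higher in normoxia, at a ratio of 3.37 ± 0.27 (SD, n = 3), and reached 5.86 ± 0.37 in hypoxia.

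**Figure D3:**
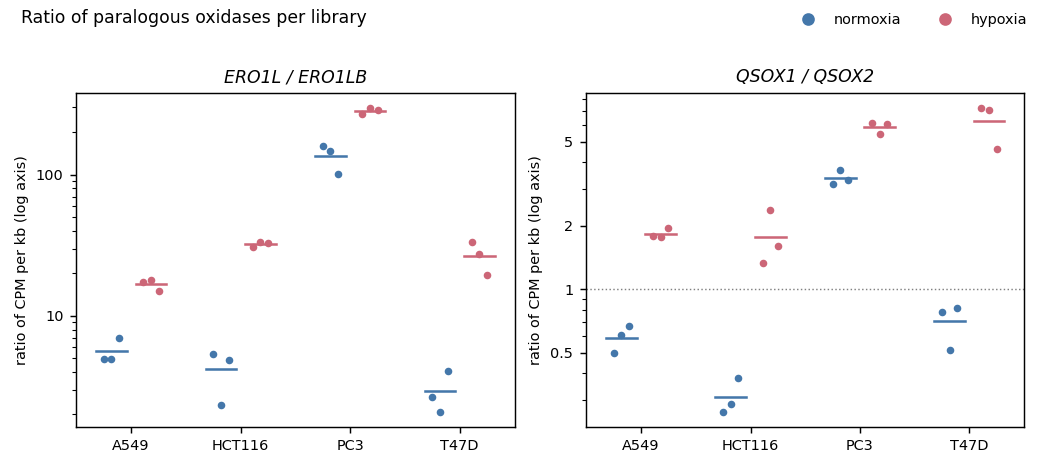
Ratio of the levels per kilobase (vertical axes, log scale) of ERO1L to ERO1LB (left) and of QSOX1 to QSOX2 (right) in each library, by cell line (horizontal axis) and oxygen state (colour), with bars for the mean of 3 libraries and a dotted line at equal levels. The QSOX ratio crosses the dotted line between the states in A549, HCT116 and T47D cells, from 0.309 to 0.704 on average up to 1.76 to 6.29, but not in PC3 cells. In CPM not divided by length, only HCT116 cells have this crossing.

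Summed per kilobase, the 4 oxidases reached 27.3 ± 2.17 CPM (SD, n = 3) in normoxic and 108 ± 24.5 CPM in hypoxic T47D cells. The sums of normoxia and hypoxia were 40.0 ± 1.72 and 90.5 ± 20.2 CPM for HCT116 cells, 49.1 ± 2.65 and 89.7 ± 0.331 CPM for A549 cells, and 117 ± 12.5 and 159.6 ± 3.22 CPM for PC3 cells. QSOX1 made up 12.6% to 27.4% of this sum on average in normoxia and 31.0% to 34.8% in hypoxia. The 5 isomerases summed to 625 ± 224 to 856 ± 64.8 CPM per kilobase in normoxia and to 946 ± 60.5 to 1532 ± 143 CPM in hypoxia. P4HB was the largest part of the isomerase sum in every group, from 43.5% in normoxic PC3 to 72.8% in hypoxic T47D cells. Set against P4HB, ERO1L had mean ratios of 0.0303 in normoxia and 0.0740 in hypoxia in T47D cells, 0.0493 and 0.0795 in A549, 0.0382 and 0.0443 in HCT116, and 0.201 and 0.202 in PC3 cells. These sums, shares and ratios are descriptions and were not tested. They depend on the length chosen, since the canonical transcript of P4HB has 2437 bases and its annotated exons together cover 11132.

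Whether the response to hypoxia differed between the lines was tested as the interaction of line and oxygen state in a single fit of all 24 libraries. It differed for QSOX1 (edgeR adjusted p = 1.06e-05), ERO1L (0.000381) and P4HB (0.0417), that is for 3 of the 9 enzymes, where 18.3% of the genes tested differed. The call for P4HB was lost with RLE size factors (edgeR adjusted p = 0.0525), a minimum mean count of 50 (0.0565), no filter (0.0751) and without the libraries of replicate 1 or 2 (0.344 and 0.530), and that for ERO1L without replicate 2 (0.0597). ERO1LB did not pass (edgeR adjusted p = 0.0703), but did so with DESeq2 (0.0201), the replicate block (0.0231), RLE size factors (0.0482), a minimum mean count of 50 (0.0402) and no filter (0.0479). PDIA3 did not pass either (edgeR adjusted p = 0.113), but did so with the block (0.0423) and without replicate 3 (0.0168). The remaining adjusted p values were 0.120 for PDIA5, 0.134 for PDIA4, 0.706 for PDIA6 and 0.962 for QSOX2. Of 54 pairwise differences between lines, 11 passed the threshold (edgeR, adjusted over all genes in each comparison). QSOX1 and ERO1L rose less in PC3 than in T47D cells, with differences of log2 fold changes (PC3 minus T47D) of -2.46 ± 0.28 (SE) and -1.93 ± 0.27 (edgeR adjusted p = 4.29e-06 and 0.000155), and both of these were kept under all 8 alternatives. A difference of that contrast was called for 2.25% of all genes.

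For QSOX1 the difference of log2 fold changes was also 1.85 ± 0.27 for HCT116 minus PC3 (edgeR adjusted p = 0.000187), -1.56 ± 0.27 for A549 minus T47D (0.00185) and -0.95 ± 0.27 for A549 minus HCT116 (0.0212). For ERO1L it was 1.21 ± 0.27 for HCT116 minus PC3 (edgeR adjusted p = 0.00648) and -1.14 ± 0.27 for A549 minus T47D (0.0241), so that A549 and PC3 cells had the smaller rise of each pair for both genes. P4HB rose more in HCT116 than in PC3 cells (HCT116 minus PC3 0.96 ± 0.28, edgeR adjusted p = 0.0235) and than in A549 cells (A549 minus HCT116 -0.86 ± 0.28, 0.0376), and PDIA5 more in HCT116 than in PC3 cells (0.74 ± 0.24, 0.0385). The fall of ERO1LB was greater in HCT116 than in A549 cells (A549 minus HCT116 1.10 ± 0.32, edgeR adjusted p = 0.0227). The share of all genes called was 14.9% between HCT116 and PC3, 16.7% between A549 and HCT116, and 2.11% between A549 and T47D cells. Between A549 and PC3 cells, where 0.758% of all genes were called, the smallest edgeR adjusted p of the 9 enzymes was 0.145, and between HCT116 and T47D cells (9.07%) it was 0.0911. Each of these 9 further differences lost its call without the libraries of replicate 2 (edgeR adjusted p = 0.0759 to 0.679), and all but that of QSOX1 between HCT116 and PC3 cells also without replicate 1 (0.0530 to 0.280). The ERO1LB difference was lost without replicate 3 as well (edgeR adjusted p = 0.137). With no filter or a mean count of at least 50, the difference of P4HB between A549 and HCT116 cells (edgeR adjusted p = 0.0742 and 0.0579) and that of PDIA5 (0.0707 and 0.0528) were lost, the former also with RLE size factors (0.0603) and the latter with library totals (0.0509).

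In normoxia, the level of 8 of the 9 enzymes differed between the lines, as did 93.5% of all genes, and 30 of 54 pairwise differences passed the threshold, where the share of all genes was 64.9% between A549 and HCT116, 60.0% between A549 and PC3, 66.6% between A549 and T47D, 65.6% between HCT116 and PC3, 68.5% between HCT116 and T47D and 67.8% between PC3 and T47D cells. P4HB was the exception, at 833 ± 47.1 to 1040.2 ± 392 CPM (SD, n = 3, edgeR adjusted p = 0.622). ERO1L was 6.07-fold higher in PC3 than in T47D cells (log2 difference 2.60 ± 0.18, edgeR adjusted p = 2.67e-09), and QSOX1 was 7.45-fold higher (2.90 ± 0.19, edgeR adjusted p = 1.68e-09). For both, PC3 cells stood highest and were followed by A549, HCT116 and T47D cells. The neighbours A549 and HCT116 (edgeR adjusted p = 0.270) and HCT116 and T47D (0.252) did not differ past the threshold for ERO1L, nor HCT116 and T47D cells for QSOX1 (0.285).

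ERO1LB had the reverse placement of PC3 cells, with 2.81 ± 0.513 CPM (SD, n = 3) in PC3 against 15.3 ± 1.75 CPM in A549, 19.3 ± 7.65 CPM in HCT116 and 21.8 ± 3.54 CPM in T47D cells. It was lower in PC3 than in T47D cells (log2 difference, PC3 minus T47D, -2.94 ± 0.27 SE, edgeR adjusted p = 6.86e-08), while A549, HCT116 and T47D cells did not differ from each other past the threshold (0.0709 to 0.530). QSOX2 was 2.94-fold higher in A549 than in T47D cells (edgeR adjusted p = 1.45e-07), with PC3 cells in between. T47D cells had the lowest level of PDIA4, 2.58- to 2.68-fold under the other lines, which did not differ past the threshold from each other (edgeR adjusted p = 0.830 to 0.926). PDIA6 was 4.45-fold higher in PC3 than in T47D cells (edgeR adjusted p = 1.93e-07), at about the same level in A549 and PC3 cells (fold 0.990, 0.970). PDIA5 was higher in PC3 and HCT116 than in A549 and T47D cells, for example 1.81-fold in PC3 against T47D cells (edgeR adjusted p = 0.000621), and PDIA3 differed only between A549 and PC3 cells (fold 0.570, edgeR adjusted p = 0.00935), a call lost without replicate 1 (0.0931).

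Other genes of the pathway were taken from lists drawn up with earlier results of these data known. Of 47 pairs of a gene and a line tested among 15 other members of the PDI family, 10 were called down and 0 up by edgeR, with 0 up at an unadjusted p under 0.05 and 0 up by DESeq2. Weighted by the same number of pairs in each line, 15.9% of all genes tested were called down and 15.3% up. Pooled over the lines, 21.3% of the pairs were called down, near that share, but the lines were unlike. In HCT116 cells 6 of 10 genes tested were called down (27.0% of all genes) and in T47D cells 3 of 14 (6.69%), above their shares. In A549 cells it was 1 of 11 (17.8%) and in PC3 cells 0 of 12 (15.7%), below them. None of these genes was called in 3 lines, and those called in more than 1 were DNAJC10, a disulfide reductase, with -1.60 in HCT116 and -0.70 in T47D cells, and TMX2, with -0.55 in HCT116 and -0.29 in A549 cells (log2 fold changes, named after their values were seen). The median log2 fold change of this list was -0.20 in A549, -0.55 in HCT116, -0.12 in PC3 and -0.24 in T47D cells. Among the other genes of ER thiol oxidation, 3 of 16 pairs were called up (18.8%, against 16.0% of all genes with these weights) and 5 down (31.2% against 16.8%). GPX8, an ER peroxidase that removes the hydrogen peroxide made by ERO1, fell in 3 lines (log2 fold change -0.70 in A549, -2.06 in HCT116 and -1.04 in T47D cells) and had -0.34 in PC3 cells (edgeR adjusted p = 0.135). VKORC1, the vitamin K epoxide reductase, rose in the same 3 lines (0.71, 0.62 and 0.82) and had 0.17 in PC3 cells (edgeR adjusted p = 0.166).

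Among the partner subunits of P4HB, 8 of 13 pairs of a gene and a line were called up (61.5%, against 17.4% of all genes) and 0 down (0 down at an unadjusted p under 0.05, and 0 by DESeq2). P4HA1 and P4HA2, the alpha subunits that form collagen prolyl 4-hydroxylase with P4HB, were called up in all 4 lines, with log2 fold changes of 1.81, 2.83, 1.01 and 2.86 for P4HA1 and 1.28, 1.74, 0.88 and 2.87 for P4HA2 in A549, HCT116, PC3 and T47D cells. Both exceeded the rise of P4HB in every line. The study itself had picked both genes as hypoxia-induced, partly on these samples. The share called up in this list is therefore not independent of that choice. P4HA3 and MTTP were not called in any line where they could be tested. Of the hypoxia reference genes, some of which the study itself chose on these samples, 31 of 32 pairs were called up (96.9%, against 16.0% of all genes), PDK1 in PC3 cells (0.11 ± 0.12, edgeR adjusted p = 0.496) being the other one.

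Genes of ER stress were called in both directions. Among 17 ER chaperones and stress targets, 15 of 68 pairs were called up (22.1%, against 16.0% of all genes with these weights) and 5 down (7.35% against 16.8%), with median log2 fold changes of -0.10 in A549, 0.25 in HCT116, 0.07 in PC3 and 0.16 in T47D cells. HSPA5, the chaperone BiP and the standard readout of the response (named with its values known), was called up in HCT116 (0.98 ± 0.24, edgeR adjusted p = 0.00436) and PC3 cells (0.37 ± 0.093, edgeR adjusted p = 0.0155), and had -0.10 ± 0.11 in A549 (edgeR adjusted p = 0.493) and 0.35 ± 0.29 in T47D cells (edgeR adjusted p = 0.441). EDEM1, which takes part in ER-associated degradation, was called up in A549 (0.76), PC3 (0.40) and T47D cells (0.67) and down in HCT116 cells (-1.19). Of 9 genes of the ATF4 and CHOP branch, 8 of 36 pairs were called up (22.2% against 16.0%) and 15 down (41.7% against 16.8%). PSAT1, a serine synthesis enzyme, fell in A549, HCT116 and T47D cells (-0.71, -0.89 and -1.08), and SLC7A11, the cystine transporter, in A549, HCT116 and PC3 cells (-0.68, -0.71 and -0.60). TRIB3, a pseudokinase, rose in A549, HCT116 and PC3 cells (1.35, 0.89 and 0.42), and PPP1R15A, a phosphatase subunit that restores translation, rose in A549, HCT116 and T47D cells (0.43, 1.10 and 0.79) but fell in PC3 cells (-0.66).

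**Figure D4:**
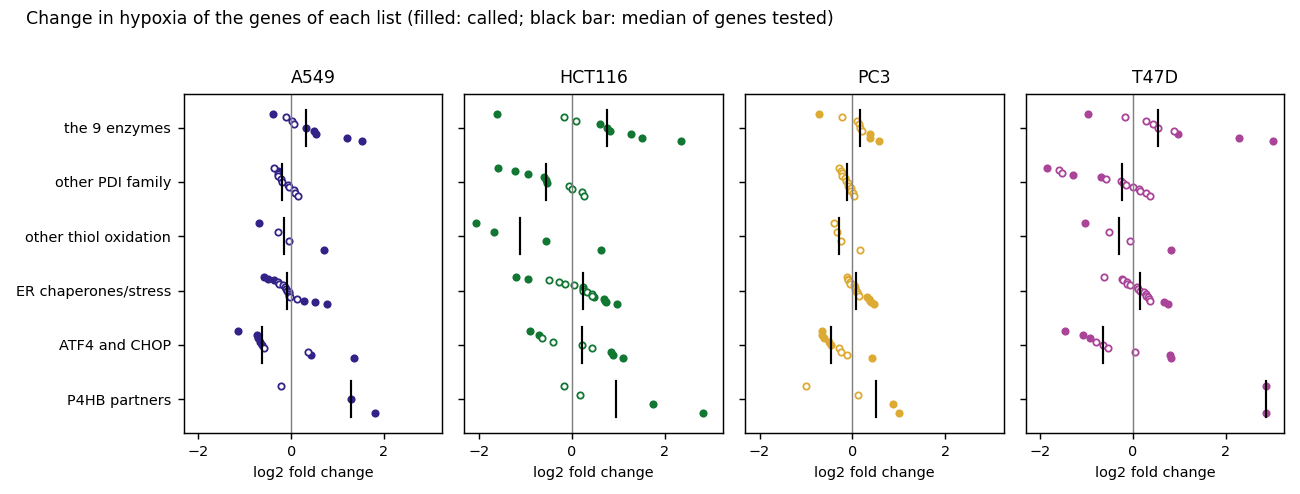
Log2 fold change in hypoxia (horizontal axes) of each gene tested in 6 gene lists (vertical axis) in each cell line (panels), with filled points for calls and black bars for the median of the list. The 9 enzymes have medians of 0.17 to 0.75, the other PDI family genes have medians below 0 in every line with no filled point above 0, and P4HA1 and P4HA2 among the P4HB partners lie between 0.88 and 2.87.

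The genes whose pattern over the 4 lines was closest to each enzyme were taken from 9286 genes tested in all lines, by the root mean square difference of the 4 log2 fold changes. For ERO1L these were DPYSL3 (0.14), TPI1, a glycolytic enzyme (0.14), and VEGFA, the angiogenic growth factor (0.18). For QSOX1 they were FLJ23867 (0.15), LDHA, lactate dehydrogenase (0.23), and ZNF395 (0.29). ERO1LB was closest to CEP44, GMFB and CCNE2 (0.059 to 0.071), P4HB to TWF2 (0.042) and PRKCSH (0.056), and PDIA3 to CD276, DIAPH2 and FBL (0.035 to 0.062). PDIA4 was closest to UBE2Z, PIK3R1 and UBL3 (0.021 to 0.038), PDIA5 to RBFOX2, TBC1D12 and NCS1 (0.028 to 0.039), PDIA6 to SPATA2, ADAM17 and ATG4B (0.036 to 0.041), and QSOX2 to PAIP1, TXLNA and IP6K2 (0.022 to 0.034). FLJ23867, whose log2 fold changes were 1.65, 2.54, 0.70 and 3.15 in A549, HCT116, PC3 and T47D cells, could not be placed with the annotation used here, and whether it shares reads with QSOX1 was not tested. A small distance among so many genes describes likeness in 4 values only.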

How the data were processed

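RNA-seq of polyadenylated RNA was analyzed in 24 libraries, 3 for each of 4 cell lines in normoxia and in hypoxia, grouped by the sample titles. The authors trimmed reads with Trim Galore 0.3.3, aligned them to GRCh37 (hg19) with HISAT2 2.05, kept uniquely placed fragments with Picard 2.0.1, so that near-identical copies of a gene lose counts, and counted fragments on UCSC-defined genes with HTSeq 0.5.4p3 in intersection-strict mode, as stated in the methods and in the submitters' processing notes. The deposited values are these counts per gene symbol, without normalization. No molecular identifiers were used, so the totals count fragments rather than molecules and do not by themselves give the precision.

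Computed here, levels are CPM after TMM normalization over all libraries, and per kilobase values use the length of the canonical transcript (GENCODE 44, lifted to GRCh37). The 9 enzymes ranged from 56 counts (ERO1LB in PC3 cells) to 142818 (P4HB in HCT116 cells) a library. Fold changes came from edgeR 4.0.16 in R 4.3.3 (filterByExpr, TMM, quasi-likelihood test), in a fit for each line, with Benjamini-Hochberg adjustment over all genes tested, calls needing an adjusted p under 0.05 with a fold change above 1.2, the thresholds of the study. The SE is the log2 fold change divided by the square root of F. Differences between lines came from a fit of all 24 libraries (interaction) and of the 12 normoxic ones (levels). The edgeR and DESeq2 fits within a line, the interaction test and the test of normoxic levels were tried on simulated counts.

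The members and gene lists were chosen with earlier results of these data known. Named were the 9 members, up to 4 genes a list called in the same direction in at least 3 lines, P4HA1, P4HA2, CA9 and PGK1, and the 3 genes closest to each member with a log2 CPM over 3, of which one is not reported here. DNAJC10, TMX2, HSPA5 and PDK1 were named with their values known. The titles number the replicates 1 to 3 in each state. In T47D cells, libraries with the same number had deviations from the group mean that correlated at 0.169 to 0.323, in all 3 pairs over 0.1, so that the numbers were taken to pair the T47D libraries. The main T47D calls nevertheless came from the fit without pairing, and the paired fit is given as an alternative. Alternatives were DESeq2 1.42.0, RLE size factors, library totals, a minimum mean count of 50 or no filter, a block for the replicate number, a single fit of all 24 libraries and each library left out.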

Additional observations from a re-analysis of the deposited data

Results flagged for a closer look

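The response to hypoxia differed between the 4 cell lines by the test of the difference itself for 3 of the 9 enzymes. This is what brought them here, and 18.3% of all genes tested differed as well. The adjusted p of the interaction of line and oxygen state (edgeR, all genes tested) was 1.06e-05 for QSOX1, 0.000381 for ERO1L and 0.0417 for P4HB. QSOX1 had log2 fold changes from 0.58 in PC3 to 3.01 in T47D cells, ERO1L from 0.38 in PC3 to 2.27 in T47D cells, and P4HB from 0.38 in PC3 to 1.28 in HCT116 cells. Normoxic levels of QSOX1 and ERO1L were highest in PC3 cells, at 299.6 and 385 CPM on average, and their part in the difference was not tested. The result for P4HB depended on single replicates, with adjusted p values of 0.344, 0.530 and 0.0102 without replicate 1, 2 and 3 of every group (edgeR). With all libraries kept, it also lost its call with RLE size factors, no filter and a mean count of at least 50 (edgeR adjusted p = 0.0525, 0.0751 and 0.0565). ERO1L lost its call without replicate 2 of every group (edgeR adjusted p = 0.0597).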

How the results depend on the processing

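Of 468 log2 fold changes of the 9 enzymes under an alternative, 418 kept their direction and side of the threshold, 37 lost a call, 9 gained a call and 4 changed sign, namely PDIA4 (-0.0484) and PDIA6 (-0.11) in A549 cells with library totals, PDIA6 in A549 cells without hypoxia replicate 3 (-0.0642, range without 1 library -0.0642 to 0.111) and QSOX2 in HCT116 cells without normoxia replicate 1 (0.0392, range -0.200 to 0.0392). Scaling to library totals moved the log2 fold changes by a median of -0.12 in A549 and -0.11 in T47D cells. The count of enzymes called down in A549 cells fell from 1 to 0 with RLE size factors, no filter, the replicate block or a single fit of all libraries. That single fit called 3 up in A549 cells, 1 up and 0 down in PC3 cells and 6 up in T47D cells, 2 pairs up among the other PDI family genes and 3 down among the ER chaperones. The share of all genes called was counted for the main fits only. Counts under the alternatives therefore cannot be set against it and show only how calls depend on the processing. With library totals, 9 pairs were called up among the ER chaperones and 5 in the ATF4 and CHOP branch. Without 1 library each, the counts ranged from 4 to 5 up and 0 to 1 down in A549, 5 to 6 up and 1 to 1 down in HCT116, 1 to 3 up and 0 to 1 down in PC3 and 2 to 4 up and 0 to 1 down in T47D cells. Those of the lists ranged from 0 to 0 up and 7 to 12 down (other PDI family), 2 to 3 up and 4 to 6 down (thiol oxidation), 11 to 17 up and 4 to 7 down (ER chaperones), 6 to 8 up and 13 to 16 down (ATF4 and CHOP), 8 to 8 up and 0 to 1 down (P4HB partners) and 29 to 31 up and 0 to 0 down (hypoxia reference genes).

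Without 1 replicate number of every group, 1 to 4 enzymes differed in their response between lines and 7 to 8 in normoxic level. With the replicate block, 5 enzymes differed in response instead of 3, PDIA3 (edgeR adjusted p = 0.0423) and ERO1LB (0.0231) being added. For these alternatives too, the share of all genes that differed was not counted. Outside T47D cells the same-numbered libraries correlated at 0.0448 to 0.311, not all over 0.1, so they were not taken as paired. This cut cannot decide whether they are, since 4 of 6 libraries in A549, 5 of 6 in HCT116 and 6 of 6 in PC3 cells were closest to their own number. Within lines the block changed the call of ERO1LB in A549 (edgeR adjusted p = 0.0527) and of PDIA3 in T47D cells, and no other call of the 9 enzymes. No block was fitted for normoxic levels, as the lines share no cultures, and DESeq2 was not run for the pairwise differences. The causes of these changes were not tested. Depth limits ERO1LB in PC3 cells most, at 56 to 151 counts a library.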
